A study of Mus musculus with 2 samples.

Results

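The genes of the proteasome were compared between the second polar body (PB2) and the zygote of the mouse. They were taken as every gene of the table whose symbol starts with Psm, a letter from a to g and a digit. This rule found 42 of 11262 genes. A comparison was made for the 10645 genes that reached 1 TPM in PB2, the zygote or both, and all 42 were among them. Of these, 41 code for parts of the proteasome or for proteins that activate, inhibit or assemble it. The remaining gene, Psmc3ip, is matched by name only, since its protein (Hop2) acts in meiotic recombination.

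PB2 is the small cell that the egg gives off when it completes meiosis after fertilization, and it was compared with the zygote to learn which transcripts it holds. Untreated C57BL/6 embryos (C57BL/6N in the methods of the study) were collected from the oviduct and grown in KSOM medium to the late stage of the first cell cycle. PB2s were then detached by pipetting in trypsin after the zona was dissolved, and pools of PB2s and of zygotes were lysed for amplification of full-length cDNA. There was 1 library of each, so no spread between replicates is known, no test was run, and every difference below describes these 2 libraries. Values are TPM, transcript abundance per unit of length set to a common total in each library. Neither the depth of a library nor the amount of RNA per cell can be read from TPM, so less RNA of a gene per cell and a smaller share of that gene in the library cannot be told apart. Egg transcripts were present in both libraries: all 10 genes of a list of egg markers were found, the lowest at 90.9 TPM in the zygote. They were not all alike in the libraries, since Gdf9, Zar1 and Zp1 passed 2-fold toward PB2 and Dppa3 toward the zygote. Of 12 cumulus and granulosa cell markers 4 were analysed here, and only Cyp19a1, at 72.2 TPM in zygotes and 70.9 TPM in PB2, exceeded 3.3 TPM. Of 8 leukocyte markers 2 were analysed here, and they reached at most 10.3 TPM.

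The proteasome is the protease that degrades proteins tagged with ubiquitin. Its 20S core is a barrel of alpha and beta rings that holds the active sites inside, and its 19S cap recognises the tag, removes it, unfolds the substrate and feeds it into the barrel. A cap on a core makes the 26S proteasome. Eggs are loaded with maternal proteins and RNAs, and part of the maternal protein store is degraded through ubiquitin and the proteasome in the early embryo.

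Transcripts of the proteasome were on the whole lower in PB2 than in the zygote, while 3 genes stood out in the opposite direction. The 42 genes summed to 8831.7 TPM in zygotes and 5820.3 TPM in PB2, a ratio of 0.66. A 2-fold or larger excess in the zygote was seen for 12 of the 42 (28.6%), where the share over all genes was 8.09%. An excess of that size in PB2 was seen for 3 of the 42 (7.14%), where the share over all genes was 18.9%. The remaining 27 lay under 2-fold. Folds were counted on the log2 ratio, log2((PB2 TPM + 1)/(zygote TPM + 1)), which is negative where PB2 is lower and understates the difference of genes with low values. Its median was -0.30 over the 42 genes and 0.21 over all genes compared. The log2 ratio was below 0 for 29 of the 42 genes (69.0%) and for 40.0% of all genes compared. The 12 genes higher in the zygote were Psma1, Psma2, Psma5, Psma6, Psmb2, Psmb7, Psmc1, Psmc5, Psmc6, Psmd12, Psmd14 and Psmg4, of which 11 code for subunits of the 26S proteasome. The 3 genes higher in PB2 were the lid subunit Psmd3, the activator Psme3 and the assembly factor Psmg2.

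The order of abundance among the genes was similar in the libraries, with a Spearman correlation of TPM of 0.88 over the 42 genes. The values ranged from 2 to 2916.1 TPM in the zygote and from 1.3 to 1291.6 TPM in PB2, and the median was 70.25 TPM in zygotes and 71.1 TPM in PB2. The median was thus nearly equal while the sum was lower in PB2, because several of the most abundant genes were among those lower in PB2.

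**Figure D1:**
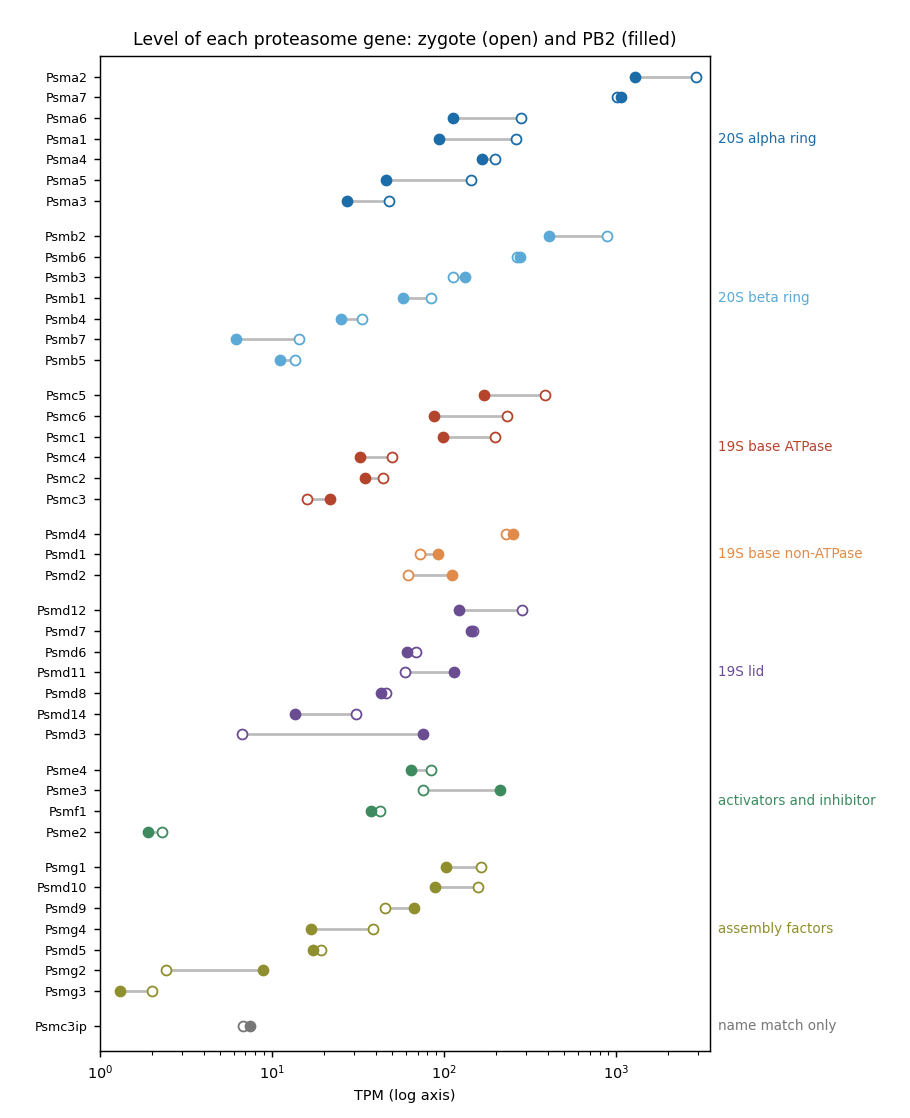
TPM of each of the 42 genes on a log axis, zygote as open and PB2 as filled circles joined by a line, grouped by part of the proteasome with the highest zygote value at the top of each group. Filled circles lie to the left in most of the alpha ring and the ATPases, and the longest line to the right is that of Psmd3, from 6.7 to 75.6 TPM.

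The alpha ring forms the gate of the barrel and is the docking face for the cap and other activators. Of its 7 genes, 4 passed 2-fold toward the zygote (57.1%, beside 8.09% of all genes) and none toward PB2 (beside 18.9%). The median log2 ratio of the 7 was -1.17. The largest difference was that of Psma5 (ENSMUSG00000068749, chr3:108256926-108279974 on GRCm38, plus strand), at 142.3 TPM in zygotes and 46 TPM in PB2, 3.09-fold lower in PB2. Psma1 (chr7:114264606-114276118, minus strand) had 261 TPM in zygotes and 92.7 TPM in PB2, 2.82-fold lower in PB2. Psma6 had 279 TPM in zygotes and 112.6 TPM in PB2, 2.48-fold lower in PB2. Psma2 (chr13:14613240-14674236, plus strand) was the most abundant gene of the 42 in both libraries. It had 2916.1 TPM in the zygote, rank 41 of all genes of the table, and 1291.6 TPM in PB2, rank 85, a 2.26-fold difference. This gene alone made up 60.0% of the summed TPM of the alpha ring in the zygote and 46.0% in PB2. The other 3 alpha genes stayed under 2-fold. Psma3 had 47.8 TPM in zygotes and 27.4 TPM in PB2. Psma4 had 197.7 TPM in zygotes and 165.1 TPM in PB2. Psma7 was the alpha gene with a log2 ratio above 0, at 1013 TPM in zygotes and 1069.8 TPM in PB2.

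Although each alpha subunit occupies the same number of places in a ring, their transcripts were far from equal in level. The most and least abundant alpha genes, Psma2 and Psma3, differed 61.0-fold in the zygote and 47.1-fold in PB2. The alpha genes summed to 4856.9 TPM in zygotes and 2805.2 TPM in PB2, a ratio of 0.58. Without Psma2, left out after its value was seen, the ratio was 0.78 and the median log2 ratio was -1.04.

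The beta ring carries the active sites, in Psmb6 (caspase-like), Psmb7 (trypsin-like) and Psmb5 (chymotrypsin-like). Of the 7 beta genes, 2 passed 2-fold toward the zygote (28.6%, beside 8.09% of all genes) and none toward PB2 (beside 18.9%). The median log2 ratio was -0.41. With the trend on transcript length subtracted, none of the 7 passed 2-fold, and the median was -0.23. The catalytic genes differed from one another. Psmb6 was nearly equal in the libraries, at 266.5 TPM in zygotes and 276.9 TPM in PB2. Psmb5 had 13.6 TPM in zygotes and 11.1 TPM in PB2. Psmb7 was low in both and 2.32-fold lower in PB2, at 14.4 TPM in zygotes and 6.2 TPM in PB2. In each library Psmb6 was thus the highest of the catalytic genes by a wide margin. The values of Psmb7 and Psmb5 are uncertain, since 12.1% of the exon bases of Psmb5 overlap Mir686 on the same strand and 11.8% of those of Psmb7 overlap the antisense gene Nek6. Whether the counting used strand is not given in the sources used here.

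Among the structural beta genes, Psmb2 was the most abundant and 2.16-fold lower in PB2, at 882.3 TPM in zygotes and 409.4 TPM in PB2. Its share of the summed TPM of the beta ring was 62.7% in the zygote and 44.6% in PB2. Psmb1 had 84.1 TPM in zygotes and 57.8 TPM in PB2, and Psmb4 had 33.5 TPM in zygotes and 25 TPM in PB2. Psmb3 was slightly above 0 on the log2 scale, at 113 TPM in zygotes and 132.2 TPM in PB2. The beta genes summed to 1407.4 TPM in zygotes and 918.6 TPM in PB2, a ratio of 0.65, and the most and least abundant differed 64.9-fold in the zygote and 66.0-fold in PB2. Genes of the immunoproteasome (Psmb8, Psmb9 and Psmb10), of the thymus form (Psmb11) and of the testis form (Psma8) were not analysed here.

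The base of the cap holds a ring of 6 ATPases that unfold the substrate and push it through the gate. A zygote excess of 2-fold or more was seen for 3 of the 6 ATPase genes (50%, beside 8.09% of all genes). A PB2 excess was seen for none (beside 18.9%), and the median log2 ratio was -0.81. Psmc6 (chr14:45329788-45349705, plus strand) had 232.3 TPM in zygotes and 87.2 TPM in PB2, 2.66-fold lower in PB2. Psmc5 had 385.6 TPM in zygotes and 171.3 TPM in PB2, 2.25-fold lower in PB2. Psmc1 was just past the threshold, at 197.4 TPM in zygotes and 98 TPM in PB2, 2.01-fold lower in PB2. Rounding did not decide this, since it allows a PB2-over-zygote ratio from 0.496 to 0.497. These were the 3 most abundant ATPase genes in the zygote. The 3 less abundant ones stayed under 2-fold. Psmc4 had 49.7 TPM in zygotes and 32.2 TPM in PB2, and Psmc2 had 43.9 TPM in zygotes and 34.8 TPM in PB2. Psmc3 had a log2 ratio above 0, at 15.9 TPM in zygotes and 21.8 TPM in PB2. As a result the range of the ATPase genes was narrower in PB2, with a 7.86-fold difference between highest and lowest against 24.3-fold in the zygote, and their sum went from 924.8 TPM in zygotes to 445.3 TPM in PB2, a ratio of 0.48.

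The other subunits of the base did not share this direction. Psmd2 and Psmd1 are the large scaffold subunits of the base, of which Psmd2 binds ubiquitin-like domains of shuttle factors, and Psmd4 is a ubiquitin receptor. All 3 genes had a log2 ratio above 0 and none passed 2-fold, with a median of 0.34. Psmd4 changed sign when the log2 ratios were centred on the median of all genes (-0.08) or the GC trend was subtracted (-0.48), and the median of the 3 was -0.00073 with the length trend subtracted. Psmd2 had 61.9 TPM in zygotes and 110.4 TPM in PB2, 1.78-fold higher in PB2. Psmd1 had 72.1 TPM in zygotes and 91.7 TPM in PB2. Psmd4 had 230.2 TPM in zygotes and 252.5 TPM in PB2. Their sum was 364.2 TPM in zygotes and 454.6 TPM in PB2, a ratio of 1.25.

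The lid of the cap holds the deubiquitinase Psmd14, which removes the ubiquitin chain before the substrate enters, and scaffold subunits around it. Its genes went both ways. Of 7 lid genes, 2 passed 2-fold toward the zygote (28.6%, beside 8.09% of all genes). Toward PB2 it was 1 (14.3%), no larger a share than the 18.9% of all genes. The median log2 ratio was -0.10. Psmd12 (chr11:107479484-107504362, plus strand) had 282.4 TPM in zygotes and 121.3 TPM in PB2, 2.33-fold lower in PB2. Psmd14 itself had 30.7 TPM in zygotes and 13.5 TPM in PB2, 2.27-fold lower in PB2. Psmd7, which pairs with Psmd14 in the complex, was nearly equal, at 146.4 TPM in zygotes and 143.3 TPM in PB2. Psmd6 had 68.4 TPM in zygotes and 60.5 TPM in PB2, and Psmd8 had 45.9 TPM in zygotes and 42.7 TPM in PB2. Psmd11, a scaffold subunit that touches the alpha ring, was 1.92-fold higher in PB2, at 59.4 TPM in zygotes and 114.2 TPM in PB2. The lid subunit Psmd13 was not analysed here.

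Psmd3 (ENSMUSG00000017221, chr11:98682554-98695979, plus strand), a lid scaffold subunit, was the gene that stood furthest apart. It had 6.7 TPM in zygotes and 75.6 TPM in PB2, 11.3-fold higher in PB2. Values are given to 1 decimal, and this rounding allows a fold between 11.2 and 11.4. The log2 ratio was 3.31, and 3 of all genes compared had a larger one. Psmd3 was the least abundant lid gene in the zygote, with 1.05% of the summed TPM of the lid, and held 13.2% in PB2. The difference between the highest and lowest lid gene was 42.1-fold in the zygote and 10.6-fold in PB2. In PB2, then, Psmd3 lay among the other subunits, and it was the zygote value that was low for a lid gene. No 50-base stretch of its longest coding transcript is found in the transcripts of another gene, and 0.342% of its exon bases overlap a gene on the other strand, Gm12356. The lid genes summed to 639.9 TPM in zygotes and 571.1 TPM in PB2, a ratio of 0.89, which was 0.78 without Psmd3, left out after its value was seen.

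**Figure D2:**
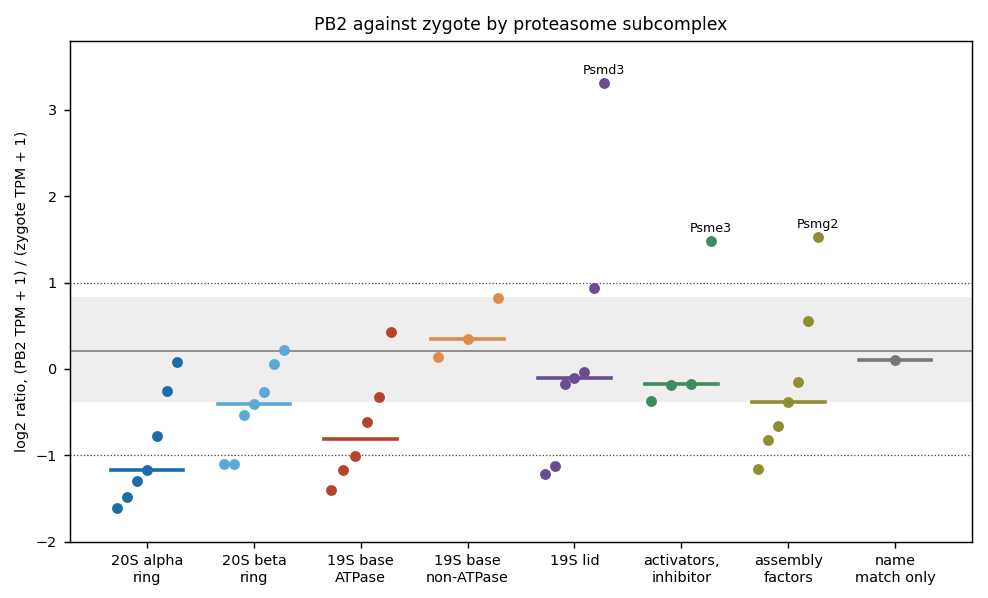
Log2 ratio of PB2 over zygote for each of the 42 genes (points) by part of the proteasome, with the median of each part as a coloured line. The grey line and band are the median and the middle quartiles of all genes compared, the dotted lines mark 2-fold, and points under 0 are lower in PB2. The medians of the alpha ring (-1.17), the ATPases (-0.81), the beta ring (-0.41) and the assembly factors (-0.38) lie below the band, the last of these only just, and Psmd3, Psmg2 and Psme3 lie above the upper dotted line.

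Set together, the 30 genes of the 26S proteasome summed to 8193.2 TPM in zygotes and 5194.8 TPM in PB2, a ratio of 0.63. Without Psma2, left out after its value was seen, the ratio was 0.74 and the median log2 ratio was -0.33. Past 2-fold lay 11 of the 30 (36.7%) toward the zygote and 1 (3.33%) toward PB2, and the median log2 ratio was -0.37. Over all genes compared the shares were 8.09% toward the zygote and 18.9% toward PB2. The 14 core genes had a median of -0.66, and 6 of them (42.9%) passed 2-fold toward the zygote. The 16 cap genes had a median of -0.14, and 5 (31.25%) passed 2-fold toward the zygote and 1 (6.25%) toward PB2. Whether core and cap differ cannot be tested with 1 library of each.

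Activators other than the cap can also open the core. Psme3, which codes for the nuclear activator PA28gamma that opens the core without need of ubiquitin or ATP, was higher in PB2. Psme3 (ENSMUSG00000078652, chr11:101316213-101323537, plus strand) had 75.5 TPM in zygotes and 212.3 TPM in PB2, 2.81-fold higher in PB2. Psme4, whose protein PA200 is a nuclear activator with a role in the breakdown of acetylated histones, had 83.6 TPM in zygotes and 64.2 TPM in PB2. Psme3 and Psme4 were thus close in the zygote, where 1 library cannot settle their order, and Psme3 was the higher in PB2. Psmf1, which codes for the inhibitor PI31, had 42.4 TPM in zygotes and 37.5 TPM in PB2. Psme2, a subunit of the interferon-induced activator PA28, was low in both libraries, at 2.3 TPM in zygotes and 1.9 TPM in PB2, and its partner Psme1 was not analysed here. The 4 genes summed to 203.8 TPM in zygotes and 315.9 TPM in PB2, a ratio of 1.55 that rested on Psme3, since it was 0.81 without that gene, left out after its value was seen.

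Assembly factors bind unfinished rings and leave, or are degraded, when the proteasome is complete. Psmg1 and Psmg2 form the pair that guides the alpha ring, and their transcripts went in opposite directions. Psmg1 had 163.2 TPM in zygotes and 102.9 TPM in PB2. Psmg2 was low in both and 3.67-fold higher in PB2, at 2.4 TPM in zygotes and 8.8 TPM in PB2, with a rounding interval of the fold from 3.57 to 3.77. Psmg3 and Psmg4 form the second pair. Psmg4 had 38.8 TPM in zygotes and 16.8 TPM in PB2, 2.31-fold lower in PB2, and Psmg3 had 2 TPM in zygotes and 1.3 TPM in PB2. Of the chaperones of the ATPase ring, Psmd10 (gankyrin) had 157.2 TPM in zygotes and 88.6 TPM in PB2. Psmd9 had 45.1 TPM in zygotes and 66.6 TPM in PB2, and Psmd5 had 19.2 TPM in zygotes and 17.2 TPM in PB2. The median log2 ratio of the 7 assembly genes was -0.38, and their sum went from 427.9 TPM in zygotes to 302.2 TPM in PB2, a ratio of 0.71. Psmc3ip, the gene matched by name only, had 6.8 TPM in zygotes and 7.4 TPM in PB2.

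Genes that work with the proteasome but do not carry a Psm symbol were followed as a separate list of 20 genes. Their median log2 ratio was 0.70, and 4 of the 20 were below 0, against 40.0% of all genes compared. Toward PB2, 3 of these 20 passed 2-fold, which is no larger a share than the 18.9% of all genes. Ubqln1, a shuttle that carries ubiquitinated proteins to the cap, had 143.9 TPM in zygotes and 405.8 TPM in PB2. Ipo9, the importin that carries the proteasome into the nucleus, had 6.3 TPM in zygotes and 17.6 TPM in PB2. Ddi2, the protease that activates the transcription factor Nfe2l1, had 13.3 TPM in zygotes and 28.7 TPM in PB2. Nfe2l1, which drives proteasome genes when the proteasome is impaired, was 33.6 TPM in zygotes and 58 TPM in PB2, under 2-fold.

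Of that list, 1 gene, Pomp, passed 2-fold toward the zygote, a share of 5% beside 8.09% over all genes. Pomp had 63.2 TPM in zygotes and 29.1 TPM in PB2. Its protein is the chaperone that brings the beta subunits onto the alpha ring. The integral cap subunits without a Psm symbol were Adrm1, a ubiquitin receptor at 41 TPM in zygotes and 41.8 TPM in PB2, and Sem1, at 26.2 TPM in zygotes and 15.9 TPM in PB2. The deubiquitinases that bind the cap also lay under 2-fold. Usp14 had 66.3 TPM in zygotes and 72.7 TPM in PB2, and Uchl5 had 39.2 TPM in zygotes and 23.4 TPM in PB2. Of 3 ubiquitin genes, Ubb passed 2-fold toward the zygote, at 1390.3 TPM in zygotes and 622 TPM in PB2. A list of 3 genes is too small for its share to be set against that 8.09%. The 6 genes that control proteasome genes or extract substrates with the segregase Vcp had a median log2 ratio of 0.23, and none passed 2-fold.

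**Figure D3:**
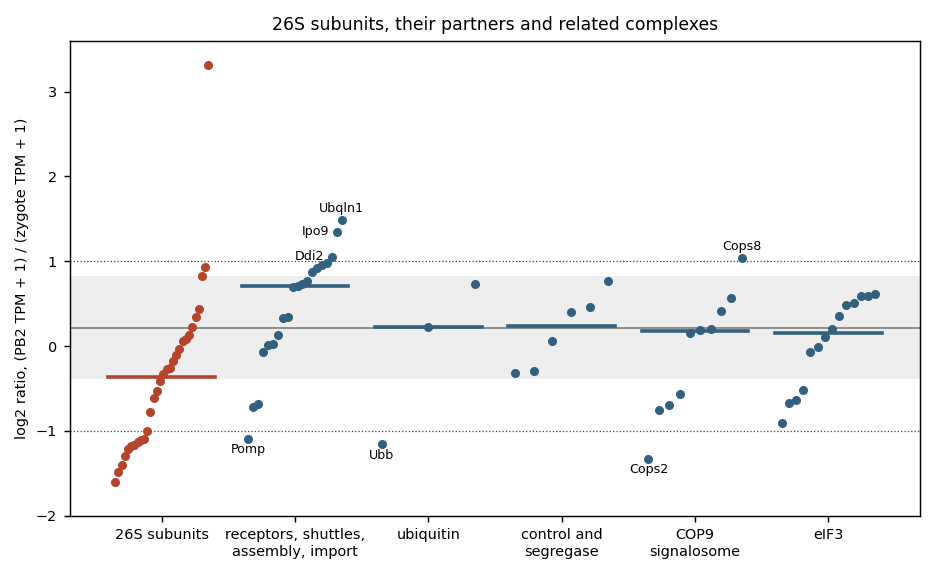
Log2 ratio of PB2 over zygote for the 30 genes of the 26S proteasome (red) and for lists of partner genes and related complexes (blue), each point a gene and each coloured line the median of a list. The grey line and band are the median and the middle quartiles of all genes compared, and the dotted lines mark 2-fold. The median of the receptors, shuttles and assembly and import factors is 0.70 and that of the 26S genes is -0.37.

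Base composition moved with the log2 ratio in these libraries. Over 10606 genes with a transcript sequence, the Spearman correlation of the log2 ratio with the GC content of the longest coding transcript was 0.44, so GC-rich transcripts tended to be higher in PB2. Over the 42 proteasome genes it was 0.39, and it was 0.34 without Psmd3. The genes shared their libraries and amplification, so these correlations are descriptions. The transcripts of the 42 genes ranged from 37.0% to 58.3% GC with a median of 49.6%, close to the 49.1% of all genes compared. The 21 genes under the median GC of the 42 had a median log2 ratio of -0.78, and the 21 others had one of -0.03. Psmd3 had the highest GC content of the 42, and Psmc6 the lowest. In length the 42 genes differed from the others. The median length of the longest coding transcript was 1490.5 bases for the 42, 3066.5 for all genes compared and 3748 for the 20 partner genes. With the trend on transcript length subtracted, the median log2 ratio was -0.37 over the 42 genes and 0.003 over all genes. The part of length in these differences was not tested.

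When the trend on GC content was subtracted, the proteasome genes as a group again lay below the other genes. The median of the 42 log2 ratios was then -0.59, beside 0.01 over all genes with a transcript sequence. Without the subtraction it was -0.30, beside 0.21 over all genes compared. Below 0 after the subtraction lay 35 of the 42, among them all 14 genes of the core, and 5256 of all 10606 genes. On this scale 13 of the 42 passed 2-fold toward the zygote, where the share over all genes was 11%, and 3 toward PB2, where it was 9.08%. Of the 12 genes higher in the zygote before, 9 remained, with log2 ratios from -1.24 (Psmc1) to -1.84 (Psmg4). Psma2 (-0.81), Psmc6 (-0.93) and Psmd14 (-0.97) dropped under 2-fold, and Psmb5, Psmc4, Psmg1 and Psmg3 passed it. Psmd3, Psme3 and Psmg2 remained at least 2-fold higher in PB2, with log2 ratios of 2.43, 1.22 and 1.46. From above to below 0 went 6 genes, namely Psma7 (-0.29), Psmb3 (-0.34), Psmb6 (-0.67), Psmc3 (-0.25), Psmd4 (-0.48) and Psmc3ip (-0.15). By part, the median on this scale was -0.81 for the alpha ring, -0.85 for the beta ring and -1.04 for the ATPases. The alpha ring was thus no longer the lowest and lay close to the beta ring. The median was 0.30 for the other base subunits, -0.28 for the lid, -0.30 for the activators and inhibitor and -0.61 for the assembly factors. Median GC content was 45.0% for the alpha ring and 52.2% for the beta ring. Of the partner genes, the list of 20 had a median of 0.48 on this scale, with 4 past 2-fold toward PB2 and 1 toward the zygote. The part of GC content in these differences was not tested.

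**Figure D4:**
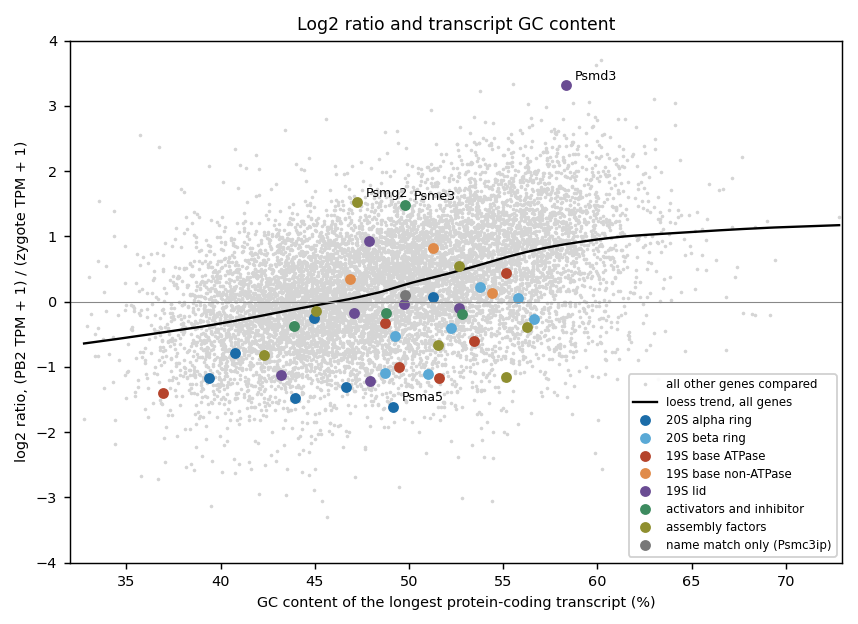
Log2 ratio of PB2 over zygote against the GC content of the longest coding transcript, for all genes compared (grey) and the proteasome genes (coloured by part), with the loess trend over all genes as a black line. The trend rises with GC content, 35 of the 42 proteasome genes lie below it, and Psmd3 lies far above it.

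Several proteasome genes have processed pseudogenes, so stretches shared with other genes were sought. The share of the 50-base stretches of each gene's longest coding transcript that also occur in a transcript of another gene was measured. Matches on either strand were counted, so a gene that overlaps on the other strand adds to the share as a pseudogene does. How reads that fit several genes were counted is not given in the sources used here. The share was 0 for Psma1, Psma6, Psmb2, Psmc5, Psmd12, Psmd3 and Psme3. It was over 50% for Psme2 (59.3%), Psmb5 (57.1%), Psmb3 (55.8%) and Psma5 (55.4%). It lay between 17.6% and 31.5% for Psma4, Psmb7, Psmc3ip, Psmd2, Psmg3, Psma3, Psmd11 and Psmc1, and the values of all these genes are less certain. Psmb7, Psmc3ip and Psmg3 each shared stretches with 1 other gene, which was not a pseudogene. The share of Psma2 was small. It was 3.53%. Exon bases overlapped another gene most in Psmd9 (25.5%, Gm26745) and Psmc3ip (21.2%, Mlx), both on the other strand, so these values are less certain too. Of the 30 genes of the 26S proteasome, the 19 that shared under 5% of their stretches had a median log2 ratio of -0.53. Of these 19, 8 (42.1%) passed 2-fold toward the zygote and 1 (5.26%) toward PB2. The 11 others had a median of -0.26, and 3 of them (27.3%) passed 2-fold toward the zygote. The shares over all genes were 8.09% toward the zygote and 18.9% toward PB2. This split was chosen after the values were seen. The log2 ratio was nearly unrelated to the share, with a Spearman correlation of 0.08 over the 42 genes.

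Proteasome genes are transcribed in nearly all cells, and their promoters were searched for motifs known from such genes. The 250 bases before the transcription start were taken from RefSeq (GRCm38.p6), where 35 of the 42 genes had 38 promoters. Psmb1, Psmb2, Psmb7, Psmc3, Psmd3, Psmd7 and Psmg2 had none in that set. The core of the sites of ETS factors, CCGGAAG on either strand, was found in 14 of the 38 promoters (36.8%) and in 6.91% of 32851 promoters of all genes. The 13 genes with it had a median log2 ratio of -0.33, and so had the genes without it. The core of the antioxidant response element, TGACNNNGC on either strand, through which Nfe2l1 acts, was found in 5 of the 38 promoters (13.2%) and in 10.2% of all promoters. The 5 genes with it had a median log2 ratio of -0.27, and those without it -0.35. The CCAAT box was found on either strand in 13 of the 38 promoters (34.2%) and in 33.8% of all promoters. The 13 genes with a CCAAT box had a median log2 ratio of -0.78, and those without it -0.26. Whether a motif goes with the direction was not tested. A match is a description of the letters and not of binding.

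To show that promoters with the ETS core belong to genes of either direction, 4 of them are printed here 5' to 3', all on the plus strand and ending before the first base of the gene in GENCODE M21. For this the window of Psmc6 was shortened to 214 bases, and the others have 250. Capitals mark the ETS core and, in Psmc6, also the antioxidant response core upstream of it. Psmc6 was 2.66-fold lower in PB2 and Psmc2 was 34.8 TPM in PB2 against 43.9 TPM in the zygote, while Psmd11 was 1.92-fold and Psme3 2.81-fold higher in PB2. The windows lie at chr14:45329574-45329787, chr5:21785025-21785274, chr11:80428365-80428614 and chr11:101315963-101316212 in that order.
Psmc6: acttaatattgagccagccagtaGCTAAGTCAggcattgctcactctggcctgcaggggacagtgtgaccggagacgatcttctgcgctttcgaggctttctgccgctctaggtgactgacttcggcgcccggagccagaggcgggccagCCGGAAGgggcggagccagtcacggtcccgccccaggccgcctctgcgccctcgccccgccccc
Psmc2: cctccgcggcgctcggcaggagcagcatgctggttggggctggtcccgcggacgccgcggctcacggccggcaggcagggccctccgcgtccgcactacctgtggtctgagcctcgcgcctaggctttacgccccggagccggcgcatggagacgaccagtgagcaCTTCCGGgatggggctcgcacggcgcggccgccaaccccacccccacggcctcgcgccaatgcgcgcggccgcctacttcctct
Psmd11: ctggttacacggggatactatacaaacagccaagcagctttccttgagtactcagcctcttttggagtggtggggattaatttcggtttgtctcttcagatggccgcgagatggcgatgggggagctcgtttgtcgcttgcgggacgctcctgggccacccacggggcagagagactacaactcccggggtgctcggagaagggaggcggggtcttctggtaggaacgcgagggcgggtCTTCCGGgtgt
Psme3: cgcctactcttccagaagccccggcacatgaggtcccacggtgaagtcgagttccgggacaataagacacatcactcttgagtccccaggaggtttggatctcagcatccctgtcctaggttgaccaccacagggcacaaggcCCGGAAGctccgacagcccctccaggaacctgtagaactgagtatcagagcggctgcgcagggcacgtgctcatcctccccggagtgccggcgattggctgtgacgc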

How the data were processed

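OryCun2.0, an assembly of the rabbit, is given as the reference in the supplementary methods, the labels name GRCm38 as well, and the gene identifiers are those of mouse. The authors called bases with CASAVA, aligned reads with HISAT2 2.0.4, counted them per gene with HTSeq 0.6.1p1 and normalized with DESeq2 1.18.1. The deposited values are TPM rounded to 1 decimal. How TPM was made from counts is not given in the sources used here, and TPM holds no depth, so no counting error is given. The table sums to 927063 TPM (zygote) and 898326 TPM (PB2). 0 value columns were left unused.

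The log2 ratio used a pseudocount of 1 TPM, over genes with at least 1 TPM in either library. No test was possible with 1 library each. Calls are 2-fold on this scale. Folds printed for a gene are plain ratios of TPM. Gene positions, transcript length and GC content were those of GENCODE M21 (GRCm38), which is the annotation used here and not the one the authors counted on. The loess trend on GC content or log10 length had a span of 0.3. Members, subcomplexes, lists and the genes to be named were chosen with earlier results of these data known. Every member is given with both values. Of the partner genes, COP9, eIF3 and the egg markers, the genes at least 2-fold apart are named, and so are Adrm1, Sem1, Pomp, Usp14, Uchl5, Nfe2l1 and Ddi2. Ribosomal protein genes were taken by symbol and are given as counts. The functions were tested on simulated libraries. The software was Python 3.11.15 with statsmodels 0.14.6, numpy 2.4.6, scipy 1.17.1, matplotlib 3.10.9 and pandas 2.3.3.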

Additional observations from a re-analysis of the deposited data

How the results depend on the processing

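Pseudocounts of 0.1 and 0.01, no filter or a filter at 5 TPM, scaling of the zygote by 1.06, rescaling after removal of mitochondrial genes and of the 50 highest genes, centring on the median, removal of the GC or length trend, leaving out Psmc3ip, and folds of 1.5 and 4 were compared. Of 250 values, 238 stayed within their limits (1.5 times for counts and sums, 0.5 for a gene's log2 ratio, the 95% order-statistic interval for a median), 12 moved and 0 reversed a called value. For the parts of 3 to 7 genes that interval runs from the lowest gene to the highest, and with 3 or 4 genes it falls short of 95%. Their medians could thus hardly leave it. Removing the GC trend took the alpha ring from -1.17 to -0.81 and the beta ring from -0.41 to -0.85, both counted as stayed. The median of the 42 genes ranged from -0.59 to -0.30. The same 12 and 3 genes passed 2-fold under both pseudocounts, both filters and both scalings, and centring added Psmd10. With the length trend removed 10 genes were higher in the zygote, 9 of them shared, and the 3 in PB2 remained. Psmb2 (-0.74), Psmb7 (-0.91) and Psmg4 (-0.60) dropped under 2-fold, and Psma3 (-1.10) passed it. Centring moved the median of the activators and inhibitor to -0.39, and removing the length trend that of the other base subunits to -0.00073. The 1.5-fold threshold gave 5 genes in PB2, and 4-fold gave 1 in PB2 and 0 in the zygote. The share over all genes was worked out for the main setting and with the GC trend removed, not for the other settings. Counts at those other settings can therefore not be read as an excess over all genes. Leaving out Psme3 moved the sum ratio of the activators to 0.81. It was chosen after the values were seen, as were the omissions of Psma2 and Psmd3. Removing the GC trend moved the log2 ratios of Psmb5 (-1.06), Psmb6 (-0.67), Psmd3 (2.43), Psmd4 (-0.48) and Psmg4 (-1.84), and removing the length trend that of Psmg4 (-0.60). Why the trend removals moved them was not tested. Replicate numbers are also lacking. No paired analysis was possible because PB2 and the zygote have 1 library each. The unknown depth limits the genes of a few TPM most, among them Psme2, Psmg2, Psmg3 and the zygote value of Psmd3.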

Other observations

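The COP9 signalosome and the translation factor eIF3 are built from subunits related to those of the proteasome lid, and their genes were listed beside it. The 10 COP9 genes had a median log2 ratio of 0.17, which was -0.31 with the GC trend subtracted. Cops8 was at least 2-fold higher in PB2, at 131.5 TPM in zygotes and 272.2 TPM in PB2, and Cops2 was at least 2-fold higher in the zygote, at 160.2 TPM in zygotes and 63.1 TPM in PB2. With the GC trend subtracted neither passed 2-fold (0.78 for Cops8 and -0.87 for Cops2), while Cops9 did (-1.06). The 14 eIF3 genes had a median of 0.16, and none passed 2-fold in either direction, but with the GC trend subtracted Eif3d, Eif3g, Eif3h and Eif3k, 4 of the 14, passed it toward the zygote, with a median of 0.20 over the 14. Of 71 cytosolic ribosomal protein genes compared, 1 was at least 2-fold higher in PB2 and 3 in the zygote, with a median of -0.11. With the GC trend subtracted the counts were 0 and 15 and the median was -0.51, beside -0.59 for the 42 proteasome genes. Over all genes compared the median was 0.21, with 18.9% past 2-fold toward PB2 and 8.09% toward the zygote. With the GC trend subtracted the median over all genes was 0.01, with 9.08% past 2-fold toward PB2 and 11% toward the zygote.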
